A study of Mus musculus with 4 samples.

Results

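The insulin receptor route and the FoxO transcription factors were examined through 10 genes that were chosen by name. The genes are the receptor Insr, the adaptors Irs1 and Irs2, the transcription factors Foxo1 and Foxo3, and Ccng2, Sesn1, Sesn3, Bcl6 and Cited2, which are known to respond to FoxO factors or to insulin. They are measured by 15 of the 39418 probes for mouse transcripts, and they are 10 of the 31087 gene names on the array. The cells were of the IMS32 line, which is immortalized and derives from mouse Schwann cells, the glial cells of peripheral nerve. They were kept for 1 h in DMEM with 5% FBS and either 5 mM (normal) or 15 mM (high) glucose. Pyruvate was either present at 1 mM, written Pyr (+), or left out at 0 mM, written Pyr (−), so that the group with high glucose and no pyruvate is [Glc 15 mM/Pyr (−)]. The comparison asks what the loss of pyruvate does to gene expression under normal- and high-glucose conditions. All groups share 1 cell line, the same serum and the same 1 h exposure, and no group without serum or with added insulin was analysed here.

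Insulin binds its receptor, and the receptor then phosphorylates the IRS adaptors, which recruit PI3K and lead to activation of AKT. AKT phosphorylates FoxO factors and keeps them out of the nucleus. When the route is quiet, FoxO factors return to the nucleus and switch on genes for growth arrest, stress defence and catabolism, and also genes of the route itself, such as Insr and Irs2. This control acts on the FoxO proteins, so an mRNA level of Foxo1 or Foxo3 does not show whether the factor is active. In Schwann cells, insulin and IGF signalling is known for supporting survival and myelination.

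Each group has 1 one-colour array, so no difference between groups has a replicate check and only the additive fit described further on gave a test. The 4 arrays had 28470 to 30344 probes well above background, and 0 spots were saturated. Levels are log2 intensities relative to the array's own 75th percentile, which was 1597 to 1788. The error printed with a difference, termed the spot error, comes from the SD between repeated spots of 399 probes that were printed 10 times. It covers the error within the arrays and leaves out the variation between cultures. In total RNA of a culture, fewer cells expressing a gene and less of its RNA per cell cannot be told apart. All 8 Schwann cell markers examined were well above background on all 4 arrays, with intensities of 4837 to 5667 for Sox10 and 14820 to 18040 for Ngfr, whereas Erbb3 was dim at 15.5 to 22.2. Among markers of other cell types, 14 of 20 were well above background on all 4 arrays, beside 27589 of all 39418 probes. Some of these were as bright as Sox10, such as the neuron marker Snap25 at 5470 to 9340. The brighter probe of the endothelial marker Kdr gave 4089 to 5496. Dim probes also passed, such as that of the adipocyte marker Plin1 at 13.7 to 18.6. The macrophage marker Cd68, which passed too, read 1200 with and 1258 without pyruvate at 5 mM glucose, and 969.1 and 1817 at 15 mM. Values of 4 arrays are given in this order throughout. The part of other cell types in the results below was not tested.

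All 15 probes of the 10 genes were well above background on all 4 arrays, as were 27589 of all 39418 probes. Dim probes are among those that passed, such as that of Foxo3 at 30.1 to 38.1. The levels of the 10 genes differed little among the groups. Their ranges over the 4 arrays were 0.14 to 0.42 on the log2 scale with a median of 0.26, and the median range of the 20338 genes measured by all their probes on all 4 arrays was 0.24. The [Glc 15 mM/Pyr (−)] array stood at an end of this range for 9 of the 10 genes. The receptor, both adaptors and Foxo1 had their lowest level there, and Ccng2, Sesn1, Bcl6 and Cited2 their highest. Foxo3 also had its highest value there, but by less than its spot error. With scaling to spike-in probes, which shifts whole arrays, 0 of the 10 genes were highest on this array. The 5 that were lowest on it were the receptor, both adaptors, Foxo1 and Sesn3. Among the 20338 genes this array also gave the lowest or highest level for 69.5%, with 29.9% at their lowest and 39.5% at their highest, so that most genes had their extreme there. With spike-in scaling these shares were 48.7% at their lowest and 5.07% at their highest.

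Insr encodes the receptor tyrosine kinase that binds insulin. Its brightest probe (mm9 chr8:3151667-3151726, for transcript NM_010568) gave an intensity of 300.2 with and 293.3 without pyruvate at 5 mM glucose, and of 237.1 with and 201.0 without it at 15 mM glucose. The second probe gave 170.5, 168.8, 147.3 and 120.4 in the same order, and the third gave 97.4, 85.8, 76.0 and 67.1. All 3 probes were lowest in [Glc 15 mM/Pyr (−)], and on the relative scale the 3 probes of the gene spanned 0.39 to 0.45 log2 over the arrays.

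Irs1 and Irs2 encode the adaptors that carry the signal from the receptor to PI3K. The brighter Irs1 probe (mm9 chr1:82229692-82229751) gave 2977, 2857, 2473 and 2318, and the dimmer one gave 139.3, 151.5, 139.0 and 124.3. Both were lowest in [Glc 15 mM/Pyr (−)], but they placed [Glc 5 mM/Pyr (+)] differently. Irs2, with 1 probe (mm9 chr8:11004490-11004549), gave 17651, 15888, 14321 and 13089. Its relative log2 level was highest at 3.30 in [Glc 5 mM/Pyr (+)], and the next values, 3.19 and 3.16, differed by less than their spot SD of 0.06.

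Foxo1 and Foxo3 encode forkhead transcription factors that AKT holds in the cytoplasm. The brighter Foxo1 probe (mm9 chr3:52150183-52150242) gave 2593, 2510, 2171 and 2068, and the other gave 1686, 1658, 1566 and 1451. Both were lowest in [Glc 15 mM/Pyr (−)]. The probe for Foxo3 (mm9 chr10:41905610-41905669) was dim, with 38.1, 33.4, 30.1 and 36.7, and the spot SD at this signal was 0.18 to 0.20 log2. Its 4 levels spanned 0.26 log2, so that Foxo3 could not be ordered among the groups at this signal.

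Ccng2 encodes cyclin G2, a cyclin linked to cell cycle arrest and a known FoxO target. Its probe (mm9 chr5:93705131-93705190) gave 446.6 with and 396.3 without pyruvate at 5 mM glucose, and 385.2 with and 497.0 without it at 15 mM glucose. Ccng2 thus had the widest range of the 10 genes, 0.42 log2, with [Glc 15 mM/Pyr (−)] above the other groups. Relative to the 75th percentile, its level there was −1.72, and the lowest, in [Glc 5 mM/Pyr (−)], was −2.14.

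Sesn1 and Sesn3 encode sestrins, stress-induced proteins that restrain mTORC1. Sesn1 (mm9 chr10:41628012-41628071) gave 1171, 1174, 1058 and 1286. Its 3 lower levels lay between −0.61 and −0.57, and that of [Glc 15 mM/Pyr (−)] was −0.34. Sesn3 (mm9 chr9:14130452-14130511) gave 961.0, 1046, 953.9 and 954.8. With the percentile scaling it differed from the other 9 genes in that [Glc 15 mM/Pyr (−)] was at neither end. The [Glc 5 mM/Pyr (+)] array was then the lowest for Sesn3, at −0.90, and the other arrays lay within −0.77 to −0.74. With spike-in scaling Sesn3 was lowest in [Glc 15 mM/Pyr (−)], with −0.06 against [Glc 15 mM/Pyr (+)] and −0.235 against [Glc 5 mM/Pyr (−)].

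Bcl6 encodes a transcriptional repressor that FoxO factors induce, and Cited2 encodes a co-regulator that binds CBP and p300. Bcl6 (mm9 chr16:23965160-23965219) gave 7138, 6800, 6585 and 7610, with a relative level of 2.22 in [Glc 15 mM/Pyr (−)] against 1.96 to 2.04 elsewhere. The brighter Cited2 probe (mm9 chr10:17444502-17444561) gave 14362, 14401, 11971 and 13935, and the dimmer one gave 4572, 4628, 4611 and 5211. On the relative scale both Cited2 probes were highest in [Glc 15 mM/Pyr (−)]. They disagreed on [Glc 15 mM/Pyr (+)], which was the lowest array for the brighter probe and the second highest for the dimmer one.

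**Figure D1:**
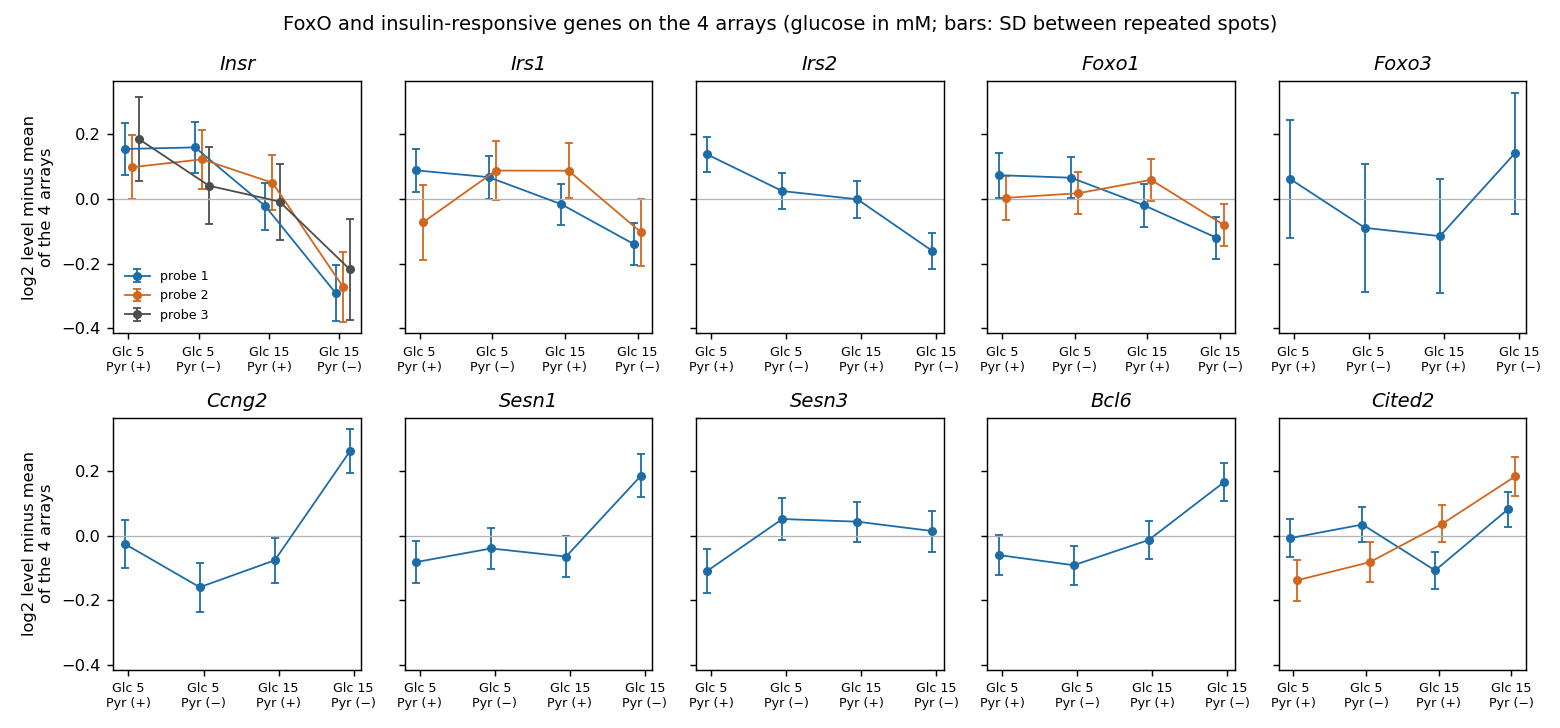
Log2 level of each probe of the 10 genes minus its mean over the 4 arrays (vertical axis, log2) in the 4 groups (horizontal axis, glucose in mM). Points are single arrays, lines join the values of 1 probe, colours tell the probes of a gene apart, and bars are the SD between repeated spots of similar signal. Insr, Irs1, Irs2 and Foxo1 are lowest and Ccng2, Sesn1, Bcl6 and Cited2 highest in [Glc 15 mM/Pyr (−)], the latter not with spike-in scaling, while the bars of Foxo3 overlap in all groups.

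At 5 mM glucose, the absence of pyruvate left the 10 genes within 0.16 log2 of their level with pyruvate. Sesn3 was the highest, with a difference of 0.16 ± 0.09 (spot error) for Pyr (−) minus Pyr (+), and Foxo3 the lowest, with −0.15 ± 0.27. With scaling to spike-in probes Sesn3 differed by −0.03. Ccng2 differed by −0.13 ± 0.11 and Irs2 by −0.11 ± 0.08. Insr, Irs1, Foxo1, Sesn1, Bcl6 and Cited2 lay between −0.04 and 0.07, each within its spot error. A difference of 2-fold was reached by 0 of the 10 genes, against 1.18% of the 22948 genes measured in both groups, and one of 1.5-fold by 0, against 3.45%. The differences exceeded 2 spot errors for 0 of the 10 genes, against 10.8% of all genes, but for 6 of the 10 and 46.6% of all genes with spike-in scaling. The median difference was −0.01 for the 10 genes and −0.02 for all genes, with 5 of the 10 higher and 5 lower.

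At 15 mM glucose, the absence of pyruvate went with differences in both directions, by up to 1.26-fold. The receptor, the adaptors and Foxo1 were lower, among them Insr and Irs2, which FoxO factors also switch on. Ccng2, Sesn1, Bcl6 and Cited2 were higher. Ccng2 was 1.26-fold higher, a log2 difference of 0.34 ± 0.10 (spot error). Sesn1 followed with 0.25 ± 0.09, Bcl6 with 0.18 ± 0.08 and Cited2 with 0.17 ± 0.06. Insr was 1.20-fold lower, with −0.27 ± 0.09, and its 3 probes gave −0.32 to −0.21. Irs2 differed by −0.16 ± 0.08, Irs1 by −0.16 ± 0.08 and Foxo1 by −0.12 ± 0.07, and both probes of Irs1 and of Foxo1 were lower. Foxo3 differed by 0.26 ± 0.26, or by −0.03 with normexp background correction, and Sesn3 by −0.03 ± 0.09, neither of them clearly more than the spot error.

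Differences at 15 mM glucose exceeded 2 spot errors for 6 of the 10 genes (Insr, Irs2, Ccng2, Sesn1, Bcl6 and Cited2), against 28.3% of the 21884 genes measured. The share of all genes was not matched for signal, and the spot error is smaller for bright probes. A 2-fold difference was reached by 0 of the 10 genes, against 2.16% of all genes, and a 1.5-fold difference by 0, against 6.76%. When the genes were divided by signal into 20 classes, 8 of the 10 lay outside the central 50% of the genes of similar signal and 0 outside the central 95%. At 5 mM glucose these numbers were 5 and 0. The median difference was 0.07 for the 10 genes and 0.03 for all genes. Immediate-early genes, which respond within minutes to many stimuli, moved with the same array: their median difference for the absence of pyruvate was 0.59 at 15 mM and −0.30 at 5 mM glucose. Their part in the differences of the 10 genes was not tested.

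**Figure D2:**
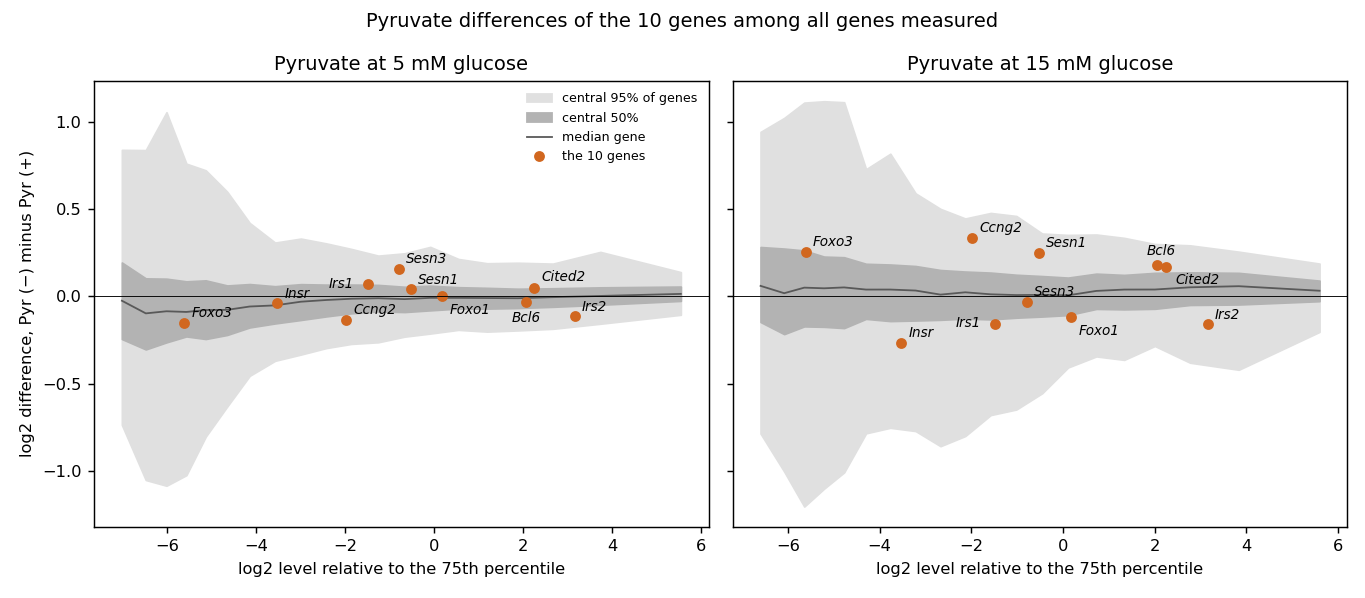
Log2 difference Pyr (−) minus Pyr (+) (vertical axis) against the log2 level relative to the 75th percentile of the array (horizontal axis), at 5 mM glucose (left) and 15 mM glucose (right). Grey bands hold the central 50% and 95% of all genes in 20 classes of signal, the line is the median gene, and points are the 10 genes. At 15 mM glucose 8 of the 10 points lie outside the inner band, and all 10 lie inside the outer band at both concentrations.

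With pyruvate in the medium, raising glucose from 5 to 15 mM left all 10 genes within 0.18 log2. Irs2 was lower, with −0.14 ± 0.08. Insr also differed by −0.14 ± 0.08, but by 0.00 with normexp, and Sesn3 was higher, with 0.15 ± 0.09, but differed by −0.20 with spike-in scaling. Foxo3 differed by −0.18 ± 0.25, within its spot error. The other 6 genes lay between −0.05 and 0.05. Of the 10 genes 0 reached 2-fold, against 1.00% of 22240 genes, and 0 reached 1.5-fold, against 3.33%. The differences exceeded 2 spot errors for 0 of the 10 genes, against 16.7% of all genes, but for 10 of the 10 and 79.0% of all genes with spike-in scaling. The 2 probes of Irs1, of Foxo1 and of Cited2 differed in sign here, with −0.10 and 0.17 for Cited2, so that the mean of the probes hides a disagreement.

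Without pyruvate, 15 mM glucose went with a lower receptor and higher cyclin G2. This comparison and the one of pyruvate at 15 mM glucose share the [Glc 15 mM/Pyr (−)] array, so that a deviation of this array alone enters both. Insr was 1.29-fold lower, with a log2 difference of −0.37 ± 0.09, and Ccng2 was 1.34-fold higher, with 0.42 ± 0.10. Bcl6 differed by 0.26 ± 0.08, Sesn1 by 0.23 ± 0.09 and Cited2 by 0.16 ± 0.06. The 2 probes of Cited2 gave 0.05 and 0.27, and with spike-in scaling Cited2 differed by −0.04, Bcl6 by 0.06, Sesn1 by 0.03 and Ccng2 by 0.22. Irs1 differed by −0.20 ± 0.08, Irs2 by −0.19 ± 0.08 and Foxo1 by −0.14 ± 0.06. Foxo3, with 0.23 ± 0.27, and Sesn3, with −0.04 ± 0.09, lay within their spot errors.

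Without pyruvate, differences beyond 2 spot errors were found for 8 of the 10 genes, all but Foxo3 and Sesn3, against 33.1% of 22236 genes. With spike-in scaling 6 genes passed, against 39.9%, and they no longer included Sesn1, Bcl6 and Cited2. A 2-fold difference was found for 0, against 2.46%, and a 1.5-fold difference for 0, against 7.41%. The median was 0.06 for the 10 genes and 0.04 for all genes.

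**Figure D3:**
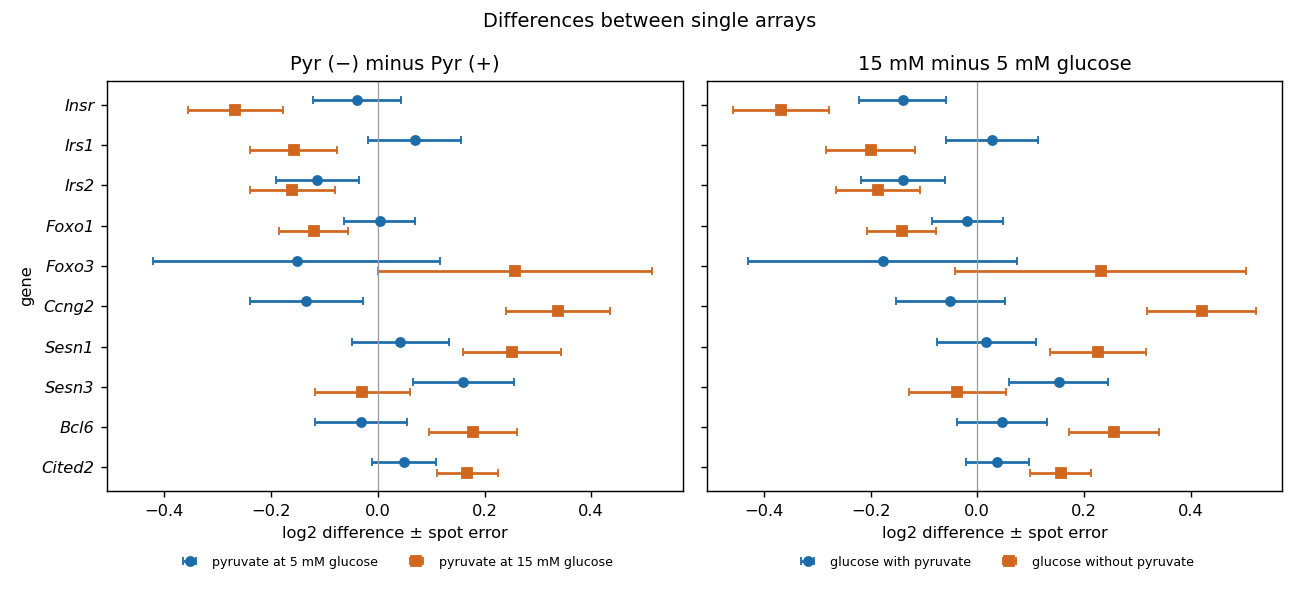
Log2 differences of the 10 genes (horizontal axis, with spot error as bars) between single arrays, for the absence of pyruvate (left) and for 15 mM minus 5 mM glucose (right). Circles are the comparisons at 5 mM glucose (left) or with pyruvate (right), and squares those at 15 mM glucose or without pyruvate. The squares of Insr at −0.27 and −0.37 and of Ccng2 at 0.34 and 0.42 lie farthest from 0.

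The difference for pyruvate at 5 mM glucose lay within the spot error for 7 of the 10 genes, so its sign was not compared with that at 15 mM glucose for these. For Ccng2, the difference at 15 mM minus that at 5 mM glucose was 0.47 ± 0.14 (spot error), for Insr it was −0.23 ± 0.12 and for Irs1 −0.23 ± 0.12. Similar values were found for Bcl6, with 0.21 ± 0.12, Sesn1, with 0.21 ± 0.13, and Sesn3, with −0.19 ± 0.13. Foxo3 gave 0.41 ± 0.37, Foxo1 −0.12 ± 0.09 and Cited2 0.12 ± 0.08. For Irs2 it was −0.05 ± 0.11, within the spot error. With 1 array per group these values are descriptions.

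The additive fit took pyruvate and glucose as separate terms over all 4 arrays, which leaves 1 residual degree of freedom and counts a dependence of one on the other as error. In limma with Benjamini-Hochberg adjustment over 31274 probes, 0% of the probes passed an adjusted p of 0.05 for pyruvate and 0% for glucose. Without adjustment, 1081 probes for pyruvate and 1491 for glucose had p under 0.05, and 0 of the 15 probes of the 10 genes were among them for either term. For glucose, 3 of the 15 had p under 0.05 in limma with spike-in scaling, beside 5045 of all 31274 probes. With an intensity trend 2 of the 15 did, beside 2746 of all 31274. Of the 15 probes, 0 passed the adjustment in limma. For the pyruvate term, the dimmest Insr probe had the lowest p of the 15, with −0.18 ± 0.09 (SE) and an adjusted p of 0.987 in limma. For the glucose term it was the brightest Insr probe, with −0.31 ± 0.12 (SE) and an adjusted p of 0.772 in limma. The fit therefore did not resolve differences of this size, and a p above the threshold does not show that the levels were alike.

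The pattern of Ccng2, the gene with the widest range, was close to that of several other genes. Of 14534 genes with a RefSeq symbol and all probes well above background, the nearest by Euclidean distance between the 4 log2 levels, each centred on its mean, were Gnal at 0.01, Gm5565 at 0.01, Fam43a at 0.02, Gtf2b at 0.03 and Pisd-ps3 at 0.03. With the percentile scaling all 5 were highest in [Glc 15 mM/Pyr (−)], at 0.24 to 0.27 above their own mean, beside 0.26 for Ccng2. With 4 arrays such a likeness rests on 4 values per gene.

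The promoters of the members were read for short sequences through which FoxO factors bind DNA, the insulin response and forkhead cores. The cAMP response element, which is not a FoxO sequence, was read beside them. The reading was made since the adaptors and Ccng2 lay at opposite ends of their ranges on the [Glc 15 mM/Pyr (−)] array with the percentile scaling. Promoter sequence from 250 bases before to 50 after the start of the gene was found for 9 of the 10 genes in RefSeq (GRCm38.p6), with 11 promoters in all, since Bcl6 and Sesn1 have more than 1. The insulin response core CAAAACA, or TGTTTTG on the other strand, was found in the promoters of Ccng2, Irs1 and Irs2 and in 6.28% of 32851 promoters of this length, or for 7.20% of 27025 genes. The forkhead core GTAAACA, or TGTTTAC, which differs from the insulin response core and cannot match the same stretch, was found in 1 promoter of Sesn1, 22 bases after the start, and in 3.65% of all promoters, or for 4.05% of the genes. The cAMP response element TGACGTCA was found for 0 of the 9 genes, and for 2.03% of all genes or in 1.79% of all promoters. The 150 bases before the start are shown for the genes with the insulin response core, written along the gene's own strand, with the core in capitals. For Ccng2 (chr5:93267423-93267572, plus strand) the core begins 16 bases before the start. For Irs1 (chr1:82291440-82291589, minus strand) it begins 111 and 32 bases before the start, and for Irs2 (chr8:11008930-11009079, minus strand) 37 bases before it.
Ccng2: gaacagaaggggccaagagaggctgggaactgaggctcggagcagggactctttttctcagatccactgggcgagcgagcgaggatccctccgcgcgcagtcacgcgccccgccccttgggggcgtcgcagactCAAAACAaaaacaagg
Irs1: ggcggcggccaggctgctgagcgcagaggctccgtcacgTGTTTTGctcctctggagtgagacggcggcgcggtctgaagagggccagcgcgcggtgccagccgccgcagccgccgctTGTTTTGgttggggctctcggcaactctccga
Irs2: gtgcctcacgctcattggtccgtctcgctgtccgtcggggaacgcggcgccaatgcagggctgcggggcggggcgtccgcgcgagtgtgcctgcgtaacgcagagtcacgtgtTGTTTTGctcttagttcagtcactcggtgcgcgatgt
A match of these letters is a description and not a measured binding site.

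Genes around the 10 members were taken from 7 lists with 78 genes in all, which cover ligands and receptors, adaptors, the PI3K, AKT and mTOR route, other FoxO factors and their regulators, and FoxO targets. Of these, 70 to 72 were measured on both arrays of a comparison, and a gene that was dim on 1 of them is not counted. The absence of pyruvate went with a 2-fold difference of 1 gene under normal and of 1 gene under high glucose. Under high glucose Pdk4, described below, was not well above background with pyruvate and stands outside the count. High glucose did so for 0 genes when pyruvate was present and for 2 when it was absent, and all of these differences were upward. These counts stand beside the 1.18%, 2.16%, 1.00% and 2.46% of all genes given above.

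Of 21 genes for PI3K, AKT and mTOR components, without pyruvate at 15 mM glucose 15 were lower and 6 higher, beside 43.0% of all genes that were lower, with a median of −0.13 against 0.03 for all genes, and 0 reached 2-fold in either direction. At 5 mM glucose 9 were lower and 12 higher, with a median of 0.02. Igf1r, the receptor for IGF-1 and the closest relative of the insulin receptor, gave 4864, 4123, 3839 and 2758 in the same order. Like Insr it was lowest in [Glc 15 mM/Pyr (−)], with −0.51 for pyruvate at 15 mM and −0.20 at 5 mM glucose. Akt1 differed by 0.01 and Akt2 by −0.01 at 15 mM glucose, and by −0.07 and −0.04 at 5 mM. Rptor, which encodes the mTORC1 scaffold Raptor, had a mean of −0.90 at 15 mM glucose, but its brighter probe gave −0.29 and its dimmer probe −1.51. Among the adaptors, Sh2b2, an adaptor of the receptor, had the largest difference, with 0.24.

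The FoxO targets that reached 2-fold were not among the 10 members. Gadd45a, a stress-induced gene of growth arrest, gave 2721, 3754, 2809 and 6036, with a difference for pyruvate of 0.50 at 5 mM and 1.07 at 15 mM glucose. Txnip, which encodes a protein that restrains glucose uptake, gave 1991, 1476, 1808 and 3553 on its brighter probe. Its mean difference for pyruvate was −0.35 at 5 mM and 0.85 at 15 mM glucose, and that for glucose without pyruvate was 1.26. It was thus highest in [Glc 15 mM/Pyr (−)]. Pdk4, which encodes a kinase that inactivates pyruvate dehydrogenase, was higher without pyruvate at both concentrations. It gave 12.7 with and 75.6 without pyruvate at 5 mM glucose, a difference of 2.61 ± 0.37 (spot error). At 15 mM glucose its signal without pyruvate was 77.1 and, in the Pyr (+) group, 11.9 and not well above background. The ratio on the relative scale, 6.36-fold, was taken to this dim signal, so it is not a lower bound. Foxo4, another FoxO factor, had a mean of 0.98 at 15 mM glucose and −0.38 at 5 mM, and 1.20 for glucose without pyruvate. It was dim, and its probes disagreed: one gave 52.6, 27.3, 38.4 and 125.4 and the other 22.2, 23.8, 19.5 and 24.1.

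The lists of FoxO targets had medians of 0.08 for cell cycle and cell death, 0.12 for metabolism and stress defence and 0.16 for autophagy and proteolysis for pyruvate at 15 mM glucose, against 0.03 for all genes. At 5 mM glucose these medians were 0.11, −0.02 and 0.01, against −0.02 for all genes. Of the 8 autophagy and proteolysis genes, 6 were higher at 15 mM glucose, beside 57.0% of all genes, with Atg12, a ubiquitin-like protein of autophagosome formation, at 0.33. All 8 were higher for glucose with pyruvate, beside 44.5% of all genes, with a median of 0.08. They ran from 0.01 ± 0.06 (spot error) for Bnip3 to 0.16 ± 0.08 for Gabarapl1 and 0.16 ± 0.25 for Trim63. Spike-in scaling moved the median of all genes in this comparison from −0.02 to −0.37, which is more than any of the 8 differences. Among the 10 immediate-early genes, 8 were higher and 3 reached 2-fold at 15 mM glucose, beside the 57.0% and 2.16% of all genes, with Fos at 2.65, Dusp1 at 1.84 and Btg2 at 1.45. Ier2 was at 1.00 there and at 1.13 for glucose without pyruvate. The values for the immediate-early genes rest on the [Glc 15 mM/Pyr (−)] array, which the largest differences of the 10 members share.

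**Figure D4:**
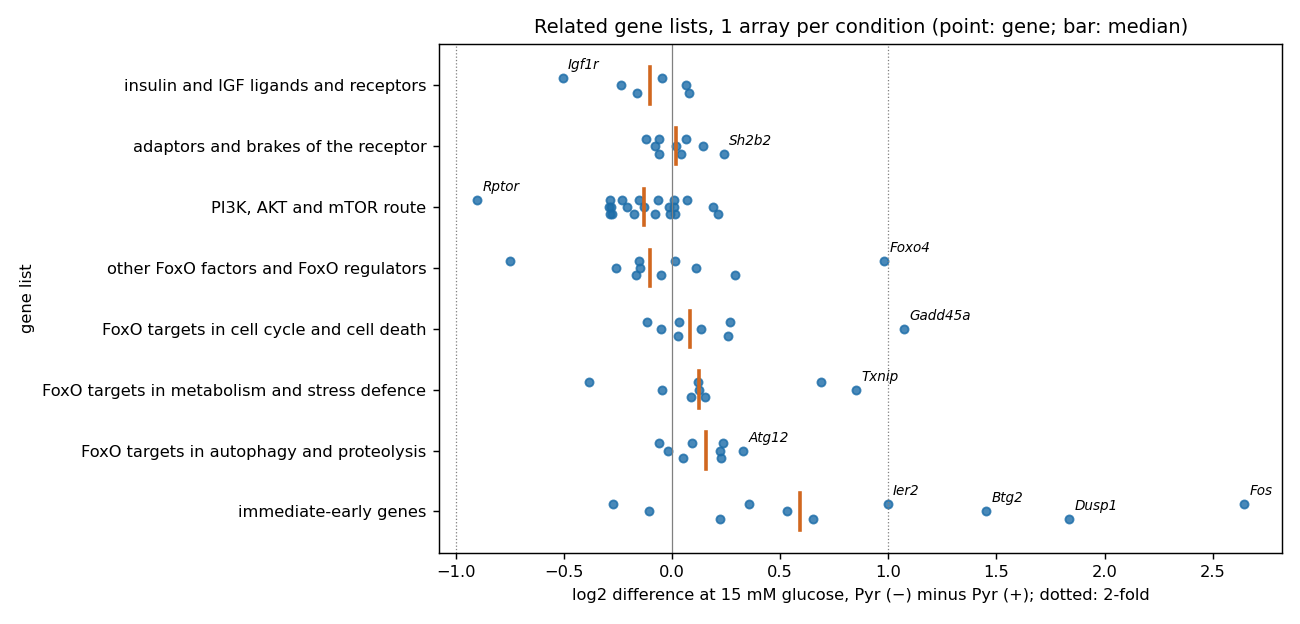
Log2 difference Pyr (−) minus Pyr (+) at 15 mM glucose (horizontal axis) for the genes of 7 lists around insulin signalling and FoxO and of the immediate-early genes (vertical axis). Points are genes, bars are medians, and dotted lines mark 2-fold. The medians run from −0.13 for the PI3K, AKT and mTOR route to 0.16 for autophagy and proteolysis, and that of the immediate-early genes is 0.59.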

How the data were processed

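The authors hybridized Cy3-labelled RNA of IMS32 cells, 1 array per group, and deposited the output of Agilent Feature Extraction 11.5.1.1, whose values are background-corrected intensity per spot. The deposited table of the whole series holds a ratio of this intensity to a percentile of the array, and all 44397 spots matched within 1e-06 after division by 1 constant per array. GeneSpring GX is named without settings. Here, control and outlier spots were left out, spots of 1 probe were averaged on the log2 scale, and the 75th percentile of the array was subtracted. Probes well above background on both arrays were averaged to a difference per gene, and 2-fold is the threshold.

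The spot error takes the median SD of the 50 repeated probes nearest in signal, combined over both arrays. limma 3.58.1 under R 4.3.3 fitted the additive model, and other steps used Python 3.11.15 with numpy 2.4.6, pandas 2.3.3 and matplotlib 3.10.9. Both calculations were tested on simulated data. Probe positions are those of the files (mm9), and exon or UTR positions are not given in the sources used here. Of the gene names, 21509 matched a RefSeq symbol.

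The 10 genes and all lists were chosen with earlier results of these data known. Named beside the 10 were genes of the lists past 2-fold in a comparison, the gene that differed most in each list for pyruvate at 15 mM glucose, Igf1r, Akt1, Akt2, Foxo4, Pdk4, Txnip, and the 5 genes nearest to the member with the widest range. Markers were named to describe the cells. The alternatives were 4 other scalings, normexp (offset 50), values of the deposited ratio, a stricter and no filter on signal, 1 probe per gene (the brightest), a threshold of 1.5-fold and a limma prior with an intensity trend.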

Additional observations from a re-analysis of the deposited data

Results flagged for a closer look

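The difference of Ccng2 for the absence of pyruvate ran in opposite directions at the 2 glucose concentrations, each by more than its spot error. It was −0.13 ± 0.11 log2 (spot error) at 5 mM and 0.34 ± 0.10 log2 at 15 mM glucose. The value at 5 mM was −1.26 spot errors and so did not reach the 2 spot errors used for the counts above. The difference between the values at 15 and 5 mM glucose was 0.47 log2. It rests on 1 array per group and was not tested.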

How the results depend on the processing

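The count of the 10 genes past 2-fold was 0 in all 4 comparisons under each alternative, including the 1.5-fold threshold. The median difference moved by more than its error in the following cases. With scaling to 8 of the 10 spike-in probes it was −0.20 for pyruvate under normal glucose, −0.35 for glucose when pyruvate was present and −0.14 when it was absent, and the median of all genes was −0.21, −0.37 and −0.16. With normexp it was −0.035 for pyruvate at 15 mM glucose, beside −0.034 for all genes, and with 1 probe per gene, the brightest, −0.10 for glucose with pyruvate. Since spike-in scaling shifts whole arrays, differences relative to the median of all genes are the same as with the main scaling by construction. Of 360 differences recomputed under 9 alternatives, 320 stayed within their spot error and 24 changed sign, 11 of these under spike-in scaling. The 320 include differences that could not move. All probes of the 10 genes were well above background on all arrays, so the stricter filter and no filter returned the main values. The deposited ratio differs from the main scaling by a constant per array, so it shifted all genes of a comparison alike. For pyruvate at 15 mM glucose only Foxo3 changed sign, to −0.03 under normexp, whereas Insr ranged from −0.30 to −0.23, Ccng2 from 0.26 to 0.35, Sesn1 from 0.21 to 0.26 and Bcl6 from 0.14 to 0.19. The largest difference of any of the 10 genes was −0.57, for Insr and glucose without pyruvate under spike-in scaling. limma called 0 probes under the 8 alternatives it was run with, which leave out the deposited ratio and the brightest probe. The number of the 10 genes beyond 2 spot errors was 6 or 7 for pyruvate at 15 mM glucose, beside 20.8% to 29.0% of all genes. For glucose without pyruvate it was 6 to 8, beside 24.9% to 39.9%. For pyruvate at 5 mM glucose it was 0, but 6 with spike-in scaling, beside 46.6% of all genes. For glucose with pyruvate it was 0 or 1, but 10 with spike-in scaling, beside 79.0% of all genes. No array could be left out and no replicates could be paired between groups, since each group has 1 array. Precision is limited by the number of arrays and, for Foxo3 and Foxo4, by low signal over background.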
